A study of Mus musculus with 10 samples.

Results

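The nuclear genes for the proteins of the mitochondrial ribosome were followed in RNA-seq counts of the mouse cochlea. Members were the protein-coding genes whose symbol is Mrpl or Mrps followed by a number, and 78 of the 54532 genes in the files met this rule, 49 of the large subunit (Mrpl) and 29 of the small subunit (Mrps). The 10 samples were cochleae of 12-month-old mtKeima mice, which carry a transgenic fluorescent reporter of mitophagy on a mixed genetic background and which the study typed as wild type for cadherin 23 and for nicotinamide nucleotide transhydrogenase. In the NR-treated group (n = 5) the drinking water held nicotinamide riboside (NR), a precursor of NAD+, at 7 mg/mL (24 mM) for 10 months from 2 months of age, and the non-treated group (n = 5) drank regular water. Each library came from 1 labelled replicate, and the labels do not say whether ears or mice were pooled. The comparison asked whether the transcripts of these genes differed with long-term NR, and whether those of the large and the small subunit differed alike.

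The mitochondrial ribosome, or mitoribosome, is built on the 12S and 16S rRNAs, which the mitochondrial genome encodes as mt-Rnr1 and mt-Rnr2, and on proteins that are all encoded in the nucleus, made in the cytosol and imported. It translates the 13 proteins of the mitochondrial genome, which are subunits of the respiratory chain complexes and of ATP synthase. The small subunit binds the mRNA and reads its codons, and the large subunit joins the amino acids and passes the chain through its exit tunnel to the inner membrane. In humans, variants of MRPS2 and MRPS7 occur in syndromes that include sensorineural hearing loss.

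The promoters of the members are shown first, since some of them hold short motifs that the choice by symbol did not use. RefSeq promoter windows on GRCm38.p6, each from 250 bases before to 50 after a start, were found for 69 of the 78 members, 75 windows in all. On either strand, CCGGAAG, a core of the sites of ETS factors such as GABP, was present in 34.7% of these windows, against 8.86% of 32851 windows of all genes. GCATGCGC, from the site of NRF1, the nuclear respiratory factor, was present in 10.7%, against 2.71%. AAGATGGCG, the core of the YY1 site, was present in 10.7%, against 1.40%. The ETS and YY1 motifs can overlap by the letters AAG. At least 1 of the 3 motifs was present in 36 of the members' 75 windows, against 12.1% of all windows. A match is a run of letters, and binding was not measured. The 250 bases upstream of the start are printed for 4 members that have no protein-coding neighbour starting head to head with them, with the motifs in capitals. They were chosen because they show the NRF1 and ETS letters alone and together and include Mrpl33 and Mrps26, whose values are given below. The YY1 letters are in none of them. The shares above also count matches in the 50 bases after the start, which are not printed.
Mrpl33 (chr5:31613701-31613950, + strand): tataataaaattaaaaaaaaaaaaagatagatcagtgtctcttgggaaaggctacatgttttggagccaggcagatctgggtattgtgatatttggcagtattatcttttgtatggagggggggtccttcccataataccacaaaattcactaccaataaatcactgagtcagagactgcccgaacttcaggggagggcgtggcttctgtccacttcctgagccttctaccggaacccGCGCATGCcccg
Mrpl22 (chr11:58171414-58171663, + strand): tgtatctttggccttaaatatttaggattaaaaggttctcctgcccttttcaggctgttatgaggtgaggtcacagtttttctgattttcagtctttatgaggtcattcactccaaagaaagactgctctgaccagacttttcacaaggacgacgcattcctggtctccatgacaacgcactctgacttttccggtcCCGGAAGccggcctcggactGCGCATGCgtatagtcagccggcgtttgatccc
Mrps18a (chr17:46110754-46111003, + strand): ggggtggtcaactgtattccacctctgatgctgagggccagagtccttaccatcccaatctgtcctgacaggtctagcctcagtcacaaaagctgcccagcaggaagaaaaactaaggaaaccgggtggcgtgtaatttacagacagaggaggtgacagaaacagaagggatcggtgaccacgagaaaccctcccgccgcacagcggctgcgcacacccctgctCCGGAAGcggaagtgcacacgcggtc
Mrps26 (chr2:130563507-130563756, + strand): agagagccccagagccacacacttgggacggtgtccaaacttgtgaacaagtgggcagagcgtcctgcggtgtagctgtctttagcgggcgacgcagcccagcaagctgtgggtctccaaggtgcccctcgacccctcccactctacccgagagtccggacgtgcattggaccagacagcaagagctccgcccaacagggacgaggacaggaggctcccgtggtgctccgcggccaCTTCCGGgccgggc

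Mrpl33 carried the NRF1 letters and Mrps18a and Mrps26 the ETS letters, while Mrpl22 carried both. Neighbours were sought from the start of each gene model, which for Mrpl33 is base 31596935, upstream of its printed window. The members also lay close to other genes more often than protein-coding genes at large. A protein-coding gene on the opposite strand started within 1000 bases, head to head, in 33 of the 78 members (42.3%), against 10.9% of 21918 protein-coding genes. Several partners also serve mitochondria. Mrps12 faced Sars2, the mitochondrial seryl-tRNA synthetase, and Mrpl43 faced Twnk, the helicase that unwinds mitochondrial DNA. Mrpl36 and Mrpl47 faced Ndufs6 and Ndufb5, both of complex I. These are picked examples, and the share of such partners among the 33 members was not counted. Mrps11 and Mrpl46 faced each other and shared 173 exon bases. Members were spread over 17 chromosomes, with 11 of them on chromosome 11.

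Facts of the whole series bear on how these values can be read. The total count per library lay between 17060379 and 24419230, and 18329 genes had enough counts to be tested with edgeR's quasi-likelihood test. At an unadjusted p of 0.05, the threshold the study used for its gene lists, 886 genes (4.83% of those tested) were higher in the NR-treated group and 894 (4.88%) were lower, together 9.71%. At a Benjamini-Hochberg adjusted p of 0.05 there were 0 (0%). The labels call all mice female, but the Y-linked genes Ddx3y, Eif2s3y, Uty and Kdm5d were expressed in all 10 libraries and Xist had 2 to 8 reads. This is the pattern of male mice, which the study's methods describe. Markers of other tissue moved with treatment: of the 9 tested markers of skeletal muscle 7 were called higher, with summed CPM of 17.01 to 899.5 in NR-treated and 15.97 to 84.6 in non-treated mice, and of the 7 tested markers of adipocytes 5 were called higher. Of 7 markers of supporting cells and the tectorial membrane 6 were called lower, and of 7 of the stria vascularis and fibrocytes 4. Of 8 hair cell markers 1 was called lower, of 6 spiral ganglion neuron markers 1 higher, of 5 Schwann cell markers 1 lower and of 6 bone markers 1 higher, and 0 of the 5 B lymphocyte, 7 neutrophil and 6 erythroid markers were called. Because the tissue is bulk, fewer cells of a type and less RNA per cell cannot be told apart, and the part that these shifts play in the values below was not tested.

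Of the 78 members 77 were tested, and 0 of them were called in either direction, where 9.71% of all tested genes were. None was called at an adjusted p of 0.05, and the smallest adjusted p was 0.518 (edgeR). In DESeq2 the call rate was 6.58% of 33153 genes (3.50% higher, 3.08% lower), with 0.308% at the adjusted threshold, and 1 member, Mrpl33, was called there, at an unadjusted p of 0.0474. The groups overlapped in every member, whereas they did not overlap in 1.65% of tested genes (0.769% with the NR-treated group above and 0.878% below). The members' median log2 fold change was 0.03, beside -0.01 over all tested genes, and 47 members lay above 0 and 30 below (61.0% above, beside 47.1% of all tested genes). With 1 mouse left out, the members' median, 0.0277 before rounding, ran from 0.0049 without non-treated replicate 4 to 0.0541 without non-treated replicate 2. It was 0.0422, 0.0133 and 0.0506 without NR-treated replicates 1, 4 and 5, and it stayed above 0 without each of the 10 mice. The number above 0 ranged from 42 to 64 when each mouse in turn was left out, lowest without non-treated replicate 4 and highest without non-treated replicate 2.

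The span of the fold changes was narrow. It ran from -0.22 for Mrps6 to 0.17 for Mrpl33 on the log2 scale, that is from 0.860-fold to 1.12-fold, and 72.2% of all tested genes had a log2 fold change no larger in size than that of Mrps6. The 95% interval of every tested member lay within a 1.5-fold change in either direction, which held for 64.8% of all tested genes. The lowest bound was -0.44 and the highest 0.40. The median half-width of the interval was 0.15 for members and 0.27 for all tested genes. The mice varied little in these genes: the highest of the 10 mice exceeded the lowest by 1.12-fold in Mrps9, by 1.24-fold in the median member and by 1.73-fold in Mrps28. Counts of tested members in a library lay between 134 reads (Mrps18c) and 2459 reads (Mrps6).

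**Figure D1:**
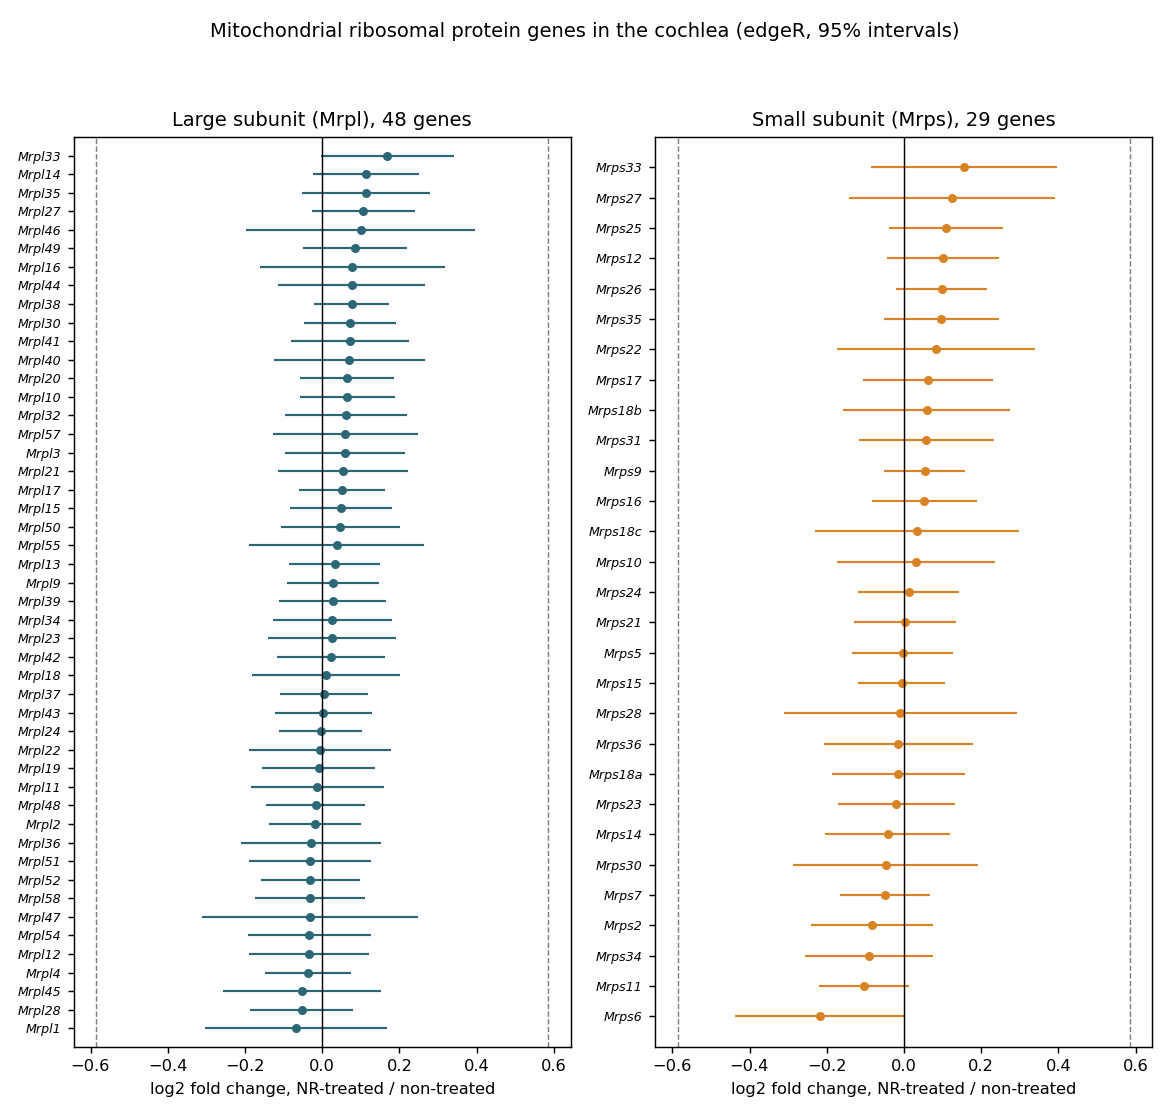
Log2 fold change (horizontal axis, NR-treated over non-treated) of the 77 tested members, large subunit on the left and small on the right, with points for estimates and bars for 95% intervals from edgeR. Every bar includes 0 and lies between the dashed lines at a 1.5-fold change, and the estimates run from -0.22 (Mrps6) to 0.17 (Mrpl33).

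In the large subunit, the gene with the smallest p was Mrpl33, whose product is a small protein with a bacterial homologue. Its CPM was 24.6, 20.1, 22.6, 24.98 and 21.9 in NR-treated replicates 1 to 5, and 21.1, 21.8, 20.5, 18.8 and 19.5 in non-treated replicates 1 to 5. The level was above the highest non-treated mouse in 4 NR-treated mice and within the non-treated range in NR-treated replicate 2. The mean was 22.8 ± 2.00 (SD, n = 5) against 20.3 ± 1.21, a log2 fold change of 0.17 ± 0.08 (SE), with an unadjusted p of 0.0526 in edgeR (adjusted p = 0.518). This gene lay at the threshold: its unadjusted p was 0.0178 without NR-treated replicate 2, 0.0301 without non-treated replicate 2 and 0.118 without NR-treated replicate 4.

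Mrpl14, Mrpl27 and Mrpl38 came next in the large subunit. Mrpl14 stood at 37.0, 32.2, 32.2, 33.9 and 34.3 CPM in the NR-treated and at 31.0, 33.0, 30.3, 28.97 and 33.4 CPM in the non-treated mice. Its difference of 0.11 ± 0.06 (SE, log2) did not pass the test (adjusted p = 0.577). Its product lies at the face that meets the small subunit. For Mrpl27, an ortholog of the bacterial protein next to the catalytic centre, CPM was 36.2, 37.6, 40.2, 38.0 and 33.6 against 32.3, 35.8, 34.6, 36.1 and 33.7. The level in NR-treated replicate 5 was lower than in 4 of the non-treated mice, and the other 4 NR-treated mice were above all non-treated ones. Its log2 fold change was 0.11 ± 0.06 (adjusted p = 0.594), and without NR-treated replicate 5 it was 0.15, at an unadjusted p of 0.0284. Mrpl38, a subunit with no bacterial homologue on the list used, gave 51.8, 51.7, 50.5, 54.2 and 51.7 CPM against 47.8, 50.4, 49.9, 47.5 and 50.9. The groups met only in NR-treated replicate 3 and non-treated replicate 5, with a log2 fold change of 0.08 ± 0.04 (adjusted p = 0.599).

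In the small subunit the 2 smallest p-values belonged to genes that were lower. Mrps6, a bacterial-type protein of the platform, was the member with the highest CPM, at 69.4, 76.6, 81.7, 82.3 and 58.9 in NR-treated and 77.7, 81.1, 99.5, 80.3 and 90.5 in non-treated mice. Of the NR-treated mice 3 lay under the lowest non-treated mouse, and 2 non-treated mice, replicates 3 and 5, lay above all NR-treated ones. The means were 73.8 ± 9.81 and 85.8 ± 9.06 (SD, n = 5 each), a log2 fold change of -0.22 ± 0.10 (SE), with an unadjusted p of 0.0529 in edgeR (adjusted p = 0.519). Without NR-treated replicate 4 the unadjusted p was 0.0438, and without non-treated replicate 3 it was 0.174. Mrps6 spans chromosome 16 from 92058270 to 92112227 on mm10 and shares 19.9% of its exon bases with Slc5a3, a myo-inositol transporter gene on the same strand, and with Gm49711. Slc5a3 stood at 382 ± 72.8 CPM in NR-treated and 362 ± 95.5 in non-treated mice.

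Mrps11, a platform protein beside the mRNA path, was at 28.7, 29.6, 30.5, 28.9 and 28.5 CPM against 30.8, 31.0, 31.1, 30.2 and 34.0. The lower group overlapped the other through NR-treated replicate 3 and non-treated replicate 4 alone, and the log2 fold change was -0.10 ± 0.05 (adjusted p = 0.550). Its head-to-head neighbour Mrpl46 had a log2 fold change of 0.10 ± 0.13 (adjusted p = 0.816), and the counting did not use strand where the pair overlap. Mrps26, found in mitoribosomes and not in bacterial ribosomes, was at 48.4, 43.8, 49.5, 47.8 and 50.1 CPM against 43.7, 45.8, 44.2, 42.9 and 47.4. All NR-treated mice but replicate 2 were above the non-treated range, with a log2 fold change of 0.10 ± 0.05 (adjusted p = 0.578). Without replicate 2 it was 0.14, at an unadjusted p of 0.0273 in edgeR. That was the 1 omission with a p under 0.05, and with other mice left out the p reached 0.159. Mrps25, another protein particular to mitochondria, was at 26.4, 27.3, 29.8, 28.6 and 28.4 CPM against 28.6, 27.3, 24.0, 24.6 and 25.8 (log2 fold change 0.11 ± 0.07, adjusted p = 0.623). It shares 69.8% of its exon bases with Nr2c2, a nuclear receptor gene on the other strand.

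**Figure D2:**
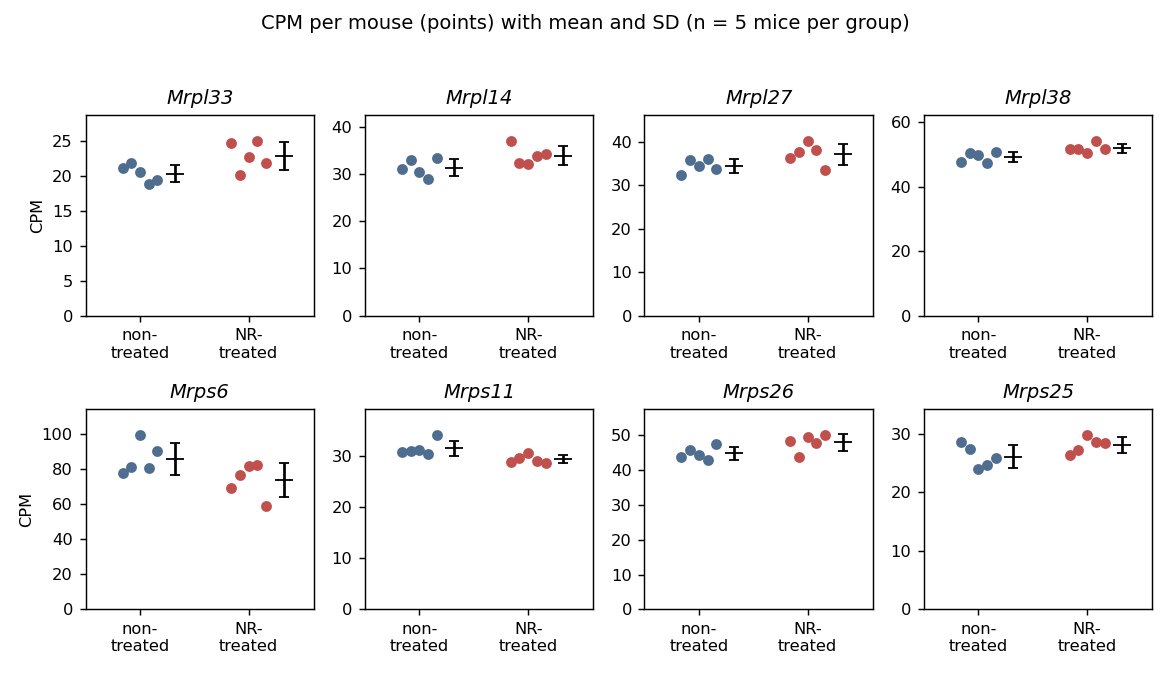
CPM (vertical axes from 0) in each mouse for the 4 members of each subunit with the smallest p, large subunit in the upper row, with the group mean and SD beside the points (n = 5 mice per group). In all 8 genes the groups overlap, with Mrps6 and Mrps11 lower and the other 6 higher on average in NR-treated mice.

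By structural role the picture was the same, with members on either side of 0 and none called. At the stalk, where translation factors dock, Mrpl10 had a log2 fold change of 0.06 ± 0.06 (SE), Mrpl12 of -0.03 ± 0.07 and Mrpl11 of -0.01 ± 0.08, and the lowest adjusted p of the 3 was 0.715, that of Mrpl10. Mrpl12 ranged from 34.8 to 40.8 CPM in NR-treated and from 34.8 to 43.0 in non-treated mice. Mrpl45, which anchors the ribosome to the inner membrane near the tunnel exit, was at 35.8 ± 3.53 against 37.1 ± 4.26 CPM, and of the 5 tunnel exit members 1 lay above 0 and 4 below, with a median of -0.01. The 4 central protuberance members had a median of 0.07. Members with a bacterial homologue (47 tested) had a median of 0.03, and the 30 tested members without a listed homologue had a median of 0.04.

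In the decoding part of the small subunit, Mrps12, the counterpart of the bacterial protein altered in streptomycin resistance, was at 26.7 ± 1.57 CPM in NR-treated and 24.9 ± 1.51 in non-treated mice (log2 fold change 0.10 ± 0.07, adjusted p = 0.644). The deafness-linked members did not pass the test. Mrps2 was at 26.2, 27.5, 26.0, 23.1 and 26.6 CPM against 29.7, 29.5, 26.5, 25.1 and 26.1 (log2 fold change -0.08 ± 0.07, adjusted p = 0.717). Its interval ran from -0.24 to 0.08. Mrps7, which holds the head of the subunit together, was at 39.8, 41.6, 43.1, 45.2 and 40.8 CPM against 41.6, 45.9, 42.8, 42.9 and 44.7 (log2 fold change -0.05 ± 0.05, adjusted p = 0.768), with an interval from -0.17 to 0.07. The groups overlapped in both genes.

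Of the Mrps18 paralogs, Mrps18b and Mrps18c were among the members with the lowest CPM, at 10.2 and 9.80 over the 10 mice. CPM takes no account of length, and these genes share 30.5% and 23.2% of their exon bases with other genes. Mrps18a was at 49.2 ± 4.67 CPM in NR-treated and 49.7 ± 4.02 in non-treated mice. The log2 fold changes were 0.06 ± 0.10 (Mrps18b), 0.03 ± 0.12 (Mrps18c) and -0.01 ± 0.08 (Mrps18a), with adjusted p-values of 0.856, 0.940 and 0.964. Symbols do not always give the place of a protein: Mrps18a and Mrps30 sit in the large subunit of the mammalian mitoribosome, and Mrps36 is a part of the 2-oxoglutarate dehydrogenase complex and not of the ribosome. Mrps30 was at 16.8 ± 1.08 against 17.4 ± 2.56 CPM (adjusted p = 0.897), where non-treated replicate 4 was lowest at 13.1, and Mrps36 was at 20.4 ± 1.57 against 20.6 ± 2.06 (adjusted p = 0.970).

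Across the subunits, 31 of the 48 tested large-subunit genes lay above 0 (median 0.03 on the log2 scale), and 16 of the 29 small-subunit genes did (median 0.01). Summed CPM of the large subunit was 1725 ± 57.1 in NR-treated and 1698 ± 70.3 in non-treated mice (SD, n = 5), and that of the small subunit was 907 ± 33.3 and 908 ± 38.3. The lowest and highest of the 10 mice were 1605 and 1786 CPM for the large and 842 and 943 CPM for the small subunit, both lowest in non-treated replicate 4. The mean log2 CPM of the large subunit minus that of the small was 0.28, 0.24, 0.26, 0.26 and 0.24 in NR-treated and 0.21, 0.26, 0.22, 0.27 and 0.25 in non-treated mice. The groups overlapped, and their means differed by 0.01, less than the SD of either group (0.02 and 0.03). The difference of the means, 0.0133 before rounding, was 0.0074 without NR-treated replicate 1 and 0.0054, 0.0066 and 0.0202 without non-treated replicates 1, 3 and 4, and these were its largest moves when each mouse in turn was left out. Grouping the genes by place in the structure gave a difference of 0.01 as well.

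**Figure D3:**
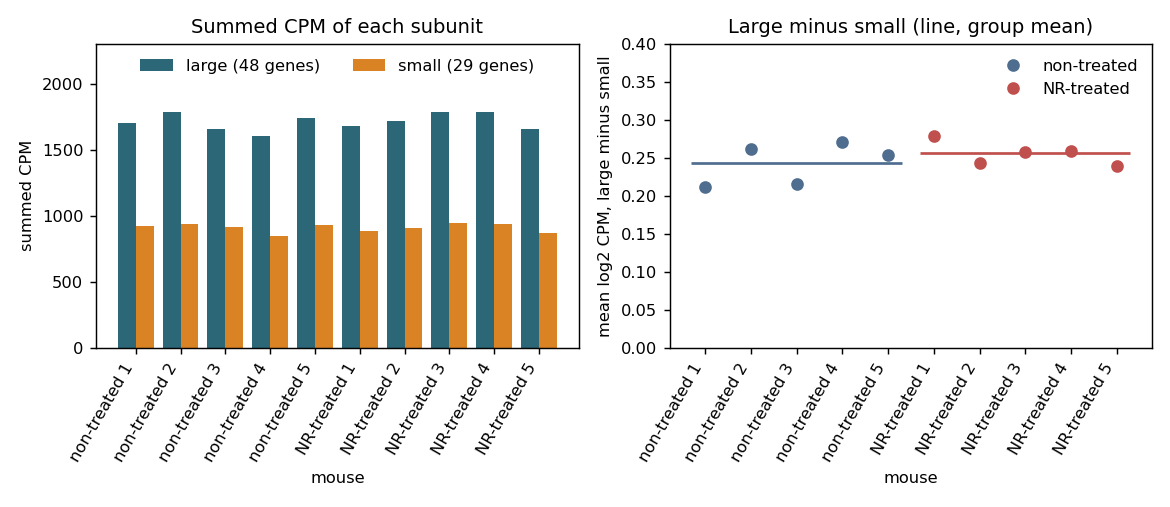
Left, summed CPM of the 48 large-subunit and 29 small-subunit genes in each mouse, as bars from 0. Right, mean log2 CPM of the large minus the small subunit in each mouse (points) with the group means (lines). The large-subunit sum stays between 1605 and 1786 CPM, and the difference on the right stays between 0.21 and 0.28 in all 10 mice.

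The mice differed more from each other than the groups did. Summed CPM of all members was 2632 ± 90.3 in NR-treated and 2606 ± 106 in non-treated mice (SD, n = 5 each), and it ran from 2447 to 2726 over the 10 mice. In non-treated replicate 4, 30 of the 77 members had their lowest value of the 10 mice and 8 were above their own median, and in NR-treated replicate 5, 17 had their lowest. In NR-treated replicates 3 and 4, 17 members each had their highest value. Skeletal muscle markers summed to 899.5, 95.4 and 667 CPM in NR-treated replicates 3, 4 and 5 and to 17.7 CPM in non-treated replicate 4, and their part in these values was not tested. The members together took between 0.241% and 0.275% of all counts.

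Members varied together across mice, with lower correlations than the cytosolic ribosomal protein genes. With each gene's log2 CPM taken as the deviation from its group mean over the 10 mice, the median Pearson r over the 2926 pairs of members was 0.30, and 79.7% of pairs were above 0. It was 0.32 among large-subunit pairs, 0.25 among small-subunit pairs and 0.30 between the subunits. Pairs of cytosolic ribosomal protein genes had a median of 0.74. Pairs of a member and a cytosolic ribosomal protein gene had a median of 0.27, near that among members, and 76.0% were above 0. Pairs of a member and a protein gene of the mitochondrial genome had a median of 0.07, and pairs of all tested genes -0.001. All pairs share the same 10 libraries, their depth and their tissue makeup, so these values are a description. The sets also differed in level. Mean log2 CPM was 7.83 (NR-treated) and 7.78 (non-treated) for cytosolic ribosomal protein genes, against 4.97 and 4.95 for members. The part that level plays in the correlations was not tested. Mrpl41 followed the mean of the other members most closely (r = 0.93), and Mrpl9 (-0.19) and Mrpl4 (-0.14) did so least. These 3 genes were picked after their values were seen.

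**Figure D4:**
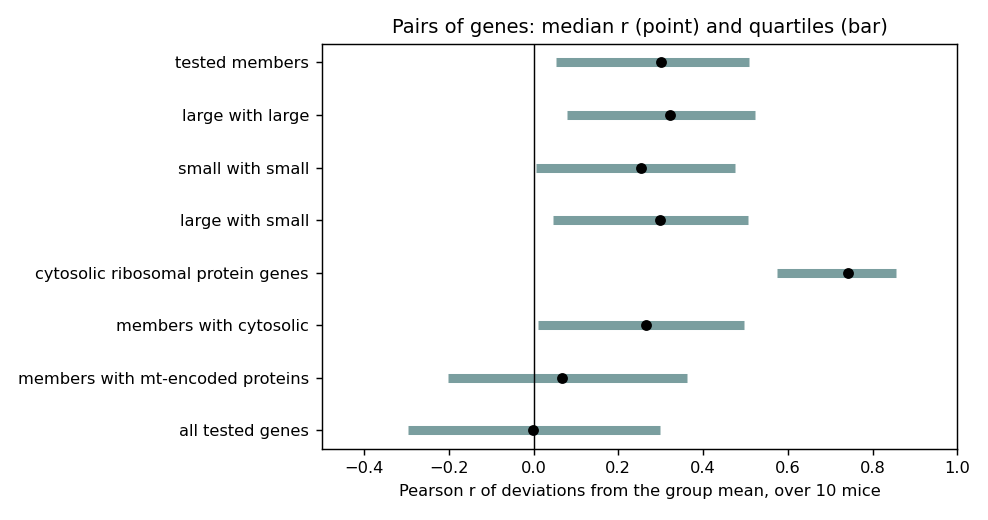
Pearson r between pairs of genes over the 10 mice, with log2 CPM as deviations from the group mean, as the median (point) and the quartiles (bar) of each set of pairs. Members have a median of 0.30, between the 0.74 of cytosolic ribosomal protein genes and the -0.001 of all tested genes. Pairs of a member with a cytosolic gene have 0.27.

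Levels differed more between members than between groups. Per kb of exon in the files, the 3 highest were Mrps21 (67.5 ± 3.70 CPM per kb, SD over 10 mice), Mrps6 (52.1 ± 7.13) and Mrpl34 (51.0 ± 3.47), and Mrps6 and Mrpl34 did not differ beyond their spread. The median member was at 13.0 CPM per kb. Mrps21 was at 50.0 ± 3.61 CPM in NR-treated and 49.9 ± 1.96 in non-treated mice (log2 fold change 0.00 ± 0.06), and Mrpl34 at 31.2 ± 2.18 against 30.7 ± 2.25 (0.03 ± 0.07). The lowest were Mrps30 at 2.57 ± 0.28 CPM per kb, Mrpl33 at 2.95 ± 0.28 and Mrpl53 at 0.

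The length used decides the place of Mrpl33. Its gene model spans chromosome 5 from 31596935 to 31664384 on mm10 with 7326 exon bases, while its basic protein-coding transcript has 478, and per kb of transcript it was at 45.2 CPM and rank 18 of 78 instead of rank 76. Both values use reads counted over all 7326 exon bases, so reads outside the transcript raise the second. Mrps18a moved from rank 38 to rank 6 in the same way. Mrps21 held rank 1 with either length, and Mrps6 held rank 2 or 3. The order by transcript length was computed after the data had been seen.

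**Figure D5:**
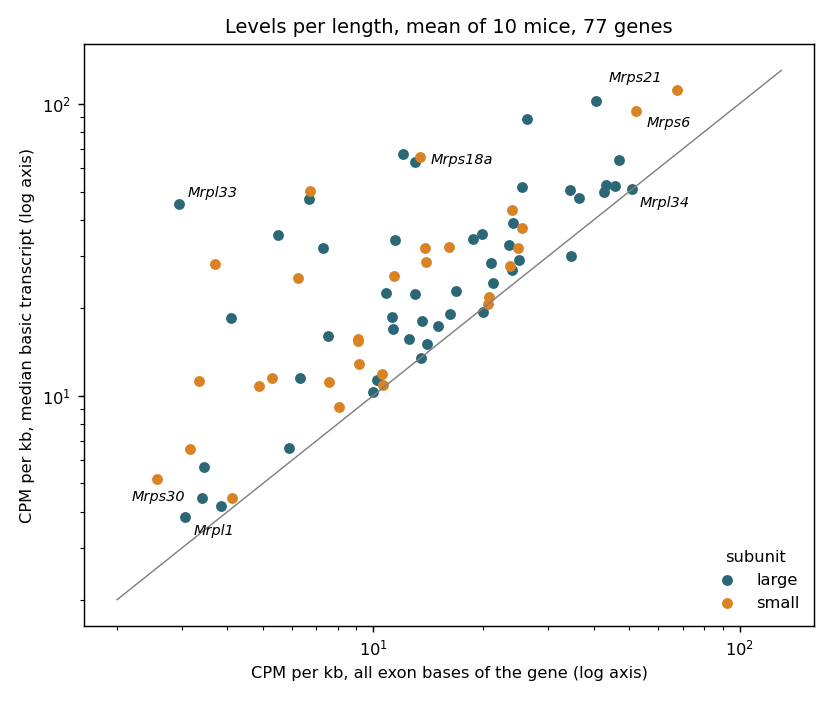
Mean CPM per kb over 10 mice with the exon length of the files (horizontal) and with the median length of basic protein-coding transcripts (vertical), both on log axes, for the 77 members with reads. The grey line marks equal values, and Mrpl33 lies farthest above it, at 2.95 against 45.2 CPM per kb.

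Mrpl53 was not tested, since it had 0 reads in all 10 libraries. A count of 0 allows at most 0.121 to 0.174 CPM per library, for counting error only. Its gene model, on chromosome 6 from 83109040 to 83109939 on mm10, shares 88.0% of its exon bases with Gm42688 on the same strand and Ccdc142os on the other, and the default counting leaves out reads that fall on more than 1 gene. Whether Mrpl53 was transcribed cannot be told from these counts. Gm42688 was at 1.85 ± 0.43 CPM in NR-treated and 1.80 ± 0.29 in non-treated mice. In all, 33 members share exon bases with another gene and 7 share over 25%: Mrpl53, Mrps34 (77.8%, with Mapk8ip3 and Nme3), Mrps25, Mrpl19 (36.0%), Mrpl43 (33.4%, with Twnk), Mrps18b (30.5%) and Mrpl24 (26.3%). Without these 7 the median log2 fold change remained 0.03. The files also hold 5 pseudogenes named after members, with at most 19 reads in a library, and reads shared with these copies are a further uncertainty for Mrpl48, Mrpl23 and Mrps36.

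Other genes of mitochondrial translation were read from the same fit. Over 7 related lists, 3 of 97 tested genes were called, all 3 higher (3.09%, beside 9.71% of all tested genes), and 64 lay above 0. The groups did not overlap in 2 of the 97, Cox18 and Mrm3, beside 1.65% of all tested genes. Cox18, which inserts the tail of COX2 into the inner membrane, was at 18.6, 18.3, 18.4, 20.001 and 18.9 CPM in NR-treated and 16.7, 18.0, 16.02, 15.5 and 15.5 in non-treated mice. The groups did not overlap, and the log2 fold change was 0.21 ± 0.07 (unadjusted p of 0.0132 in edgeR, adjusted p = 0.440). Its unadjusted p stayed at or below 0.0339 when each mouse in turn was left out. Of the 4 genes for membrane insertion it was the 1 called.

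mt-Co2, the COX2 gene of the mitochondrial genome, was at 73.9, 55.4, 46.0, 53.5 and 59.8 CPM in NR-treated and 51.1, 46.8, 42.3, 45.9 and 51.2 in non-treated mice. NR-treated replicate 1 was highest, and the log2 fold change of 0.28 ± 0.11 (unadjusted p of 0.0292, adjusted p = 0.476) was 0.19 without it, at an unadjusted p of 0.0557. Of the 13 proteins of the mitochondrial genome it was the 1 called, and 12 lay above 0, with a median of 0.10. The level of mt-Co2 was far below that of mt-Co1, at 11096 ± 1915 CPM (SD) in NR-treated and 10205 ± 466 in non-treated mice. In the same order of groups, mt-Co3 (36.4 and 32.8 CPM), mt-Atp6 (31.7 and 27.8) and mt-Nd4l (4.65 and 4.70) were low too. So were mt-Nd3 (3.76 and 3.58) and mt-Atp8 (1.31 and 1.09). The lowest of the remaining genes was mt-Nd6, at 927 and 881 CPM. The low genes are among the 13 behind the median of 0.10. The reason for these gaps was not tested. The rRNAs mt-Rnr1 and mt-Rnr2, on which the members assemble, had log2 fold changes of 0.24 ± 0.13 (adjusted p = 0.577) and 0.19 ± 0.15 (adjusted p = 0.692), and both were highest in NR-treated replicate 2, at 519 and 894 CPM.

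Among 27 genes for ribosome assembly and rRNA modification 1 was called, Mterf4, which brings the methyltransferase NSUN4 to the large subunit. It was at 14.3, 12.5, 13.5, 13.8 and 13.5 CPM in NR-treated and 11.7, 12.1, 11.8, 11.6 and 12.7 in non-treated mice. NR-treated replicate 2 lay inside the non-treated range and the other 4 above it (log2 fold change 0.18 ± 0.07, unadjusted p of 0.0338, adjusted p = 0.483). Its call was lost when any of 5 mice was left out, with an unadjusted p of up to 0.0698. Mrm3, of the same list, was not called (log2 fold change 0.19 ± 0.10, adjusted p = 0.576), but its groups did not overlap. It was at 9.69, 9.26, 10.3, 9.13 and 9.03 CPM in NR-treated and 8.34, 8.89, 8.90, 6.83 and 8.68 in non-treated mice.

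In the other related lists none was called. Of 14 translation factors and mRNA-stabilizing proteins, 10 lay above 0, and Lrpprc, which stabilizes mitochondrial mRNAs, had the smallest p (log2 fold change 0.12 ± 0.05, adjusted p = 0.517). Without NR-treated replicate 1 its unadjusted p was 0.0185 in edgeR. With each mouse in turn left out, the p was under 0.05 in 3 omissions and reached 0.0956. Of 20 aminoacyl-tRNA synthetase genes, 14 lay above 0, and Nars2 had a log2 fold change of 0.15 ± 0.09 (adjusted p = 0.625). Of 14 genes for mitochondrial transcription and its activators, 4 lay above 0, with a median of -0.05, and Tefm, the elongation factor, had 0.26 ± 0.12 (adjusted p = 0.517). The 5 mitoribosomal subunits with other symbols had a median of 0.01, and Chchd1, of the small subunit, had 0.07 ± 0.07 (adjusted p = 0.734).

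The cytosolic ribosomal protein genes were read in the same way. Of 81 tested, 1 was called, which is 1.23%, and 65 (80.2%) lay above 0, with 0.03 as their median on the log2 scale. The gene called was Rpl3l, the muscle form of Rpl3, at 0.34, 0.72, 5.41, 0.92 and 4.98 CPM in NR-treated and 0.60, 0.31, 0.20, 0.13 and 0.05 in non-treated mice. It was highest in NR-treated replicates 3 and 5, the libraries in which skeletal muscle markers were highest. Whether members and cytosolic genes differed in response was not tested.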

How the data were processed

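The deposited values are raw read counts per gene, with no normalization. According to the study's methods and the labels, the authors' provider (Novogene) filtered the reads, mapped them to mm10 with STAR (2.6.1d) and counted them with featureCounts (1.5.0) in default mode, which ignores strand and drops reads that fall on more than 1 gene. The annotation release is not given in the sources used here. Of 54532 identifiers 54409 were found in GENCODE M21, from which overlaps and transcript lengths were taken, and 73 of 78 members had equal coordinates there.

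All 10 mice entered 1 fit in edgeR (4.0.16, R 4.3.3) with filterByExpr, TMM and the quasi-likelihood test, with no covariate, and Benjamini-Hochberg adjustment ran over 18329 genes. CPM used TMM effective library sizes, and log2 CPM a prior count of 2. The SE is the log2 fold change divided by the square root of F, and 95% intervals used the fit's degrees of freedom. At the totals of 17060379 to 24419230 counts, precision covers the spread between these mice. DESeq2 (1.42.0), other scaling, filters, a robust fit, a replicate block and leaving out each mouse were alternatives. Scripts were tested on simulated data. No libraries were duplicates (45 pairs compared).

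Members and lists were chosen with earlier results of these data known. Named were the 4 members of each subunit with the smallest p, the 3 highest and 3 lowest per kb, members fixed by role, and, in each of 7 related lists, the genes called or else the gene with the smallest p. Neighbouring genes, pseudogenes, Mrpl22, Mrps9, Mrps28, Mrpl41, Mrpl9, Mrpl4, Mrm3, mt-Co1, other genes of the mitochondrial genome and Rpl3l were named besides, after their values were seen. The sex label differs from the study's methods, which describe male mice. No protein sequences were used here.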

Additional observations from a re-analysis of the deposited data

Results flagged for a closer look

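Among 68 groups of 5 values tested with Dixon's criterion at the 95% level, 2 held a mouse apart from the others, and chance alone gives about 1 in 20. In Mrps11, non-treated replicate 5 was highest at 34.0 CPM, where the other 4 non-treated mice lay between 30.2 and 31.1 CPM. In the summed CPM of the small subunit, non-treated replicate 4 was lowest at 842, where the other 4 lay between 911 and 938. The cause was not tested in either case.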

How the results depend on the processing

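Of 174 values of named genes under settings other than leaving out a mouse, 163 kept their direction and their side of the threshold, and of 290 values with 1 mouse left out 245 did. Mrpl33 was the 1 member called higher in DESeq2, with no filter on low counts and with the stricter filter (1 member in each), and 0 members were called with the other settings. Without the filter, 1414 genes in all were called higher in place of 886, Mrpl11 turned to 0.0011 and Mrps36 to 0.00040. DESeq2 called 102 of all genes at the adjusted threshold. With 1 mouse left out, members called ranged from 0 to 2 higher and from 0 to 1 lower, with 2 called without NR-treated replicate 2 (Mrpl33, Mrps26), without replicate 5 (Mrps33, Mrpl27) and without non-treated replicate 1 (Mrps6 lower, Mrps25 higher). All genes called ranged from 669 to 1414 higher, from 484 to 1059 lower and from 0 to 1 at the adjusted threshold. Genes called ranged from 2 to 6 in the related lists, from 1 to 2 in cytosolic ribosomal proteins and from 0 to 2 in mitochondrially encoded proteins. Members named for smallest p, level per kb or role were followed as each mouse was left out, and some turned sign in log2 fold change. These ranged from -0.0143 to 0.0513 (Mrps21), -0.0017 to 0.0679 (Mrpl34), -0.131 to 0.0114 (Mrps30), -0.0572 to 0.0063 (Mrpl12), -0.0457 to 0.0541 (Mrpl11), -0.0964 to 0.0079 (Mrpl45), -0.0537 to 0.0290 (Mrps18a), -0.0051 to 0.119 (Mrps18c) and -0.0571 to 0.0398 (Mrps36). The other members named in the text are not covered by this list. Mice with the same replicate number showed no sign of deviating together (r = 0.17, -0.12, -0.22, 0.02 and 0.13 for numbers 1 to 5). Of the 5 numbers, 1 correlated best with its own. Whether mice of the same number were handled together cannot be told from these values. The replicate block gave 0 members called, 879 genes higher and 776 lower in all, and a members' median of 0.03. The cause of these changes was not tested. At this depth Mrpl53, with 0 reads, could not be tested.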
